A study of Mus musculus with 16 samples.

Results

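Lysosomal hydrolases and membrane proteins are described here through 33 genes, namely 10 genes of lipid breakdown and transport, 10 of glycan breakdown, 8 of membrane proteins and 5 of protein and nucleic acid breakdown. The genes were taken by name, and each was read at the probe set annotated to its symbol alone that was brightest over the 16 tumors. A probe set is a group of short oligonucleotides on the array that reads 1 transcript. Of the 33 genes, 31 were measured in this way, out of 12393 genes on the array. The glycan enzyme gene Arsb and the membrane protein gene Cd63 had no such probe set in the annotation used and are not analysed here.

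The study profiled spontaneous lung adenocarcinomas and their metastases in mice, 1 tumor per Affymetrix Mouse 430A 2.0 array, to ask which transcripts differ once a tumor has spread. All mice carried the genotype p53R172H∆g/+ K-rasLA1/+, which joins a knock-in missense allele of the tumor suppressor p53 with an activated K-ras allele, and no tumor of another genotype was profiled among the 16. Primary tumors came from 7 mice. Metastases came from mice 1 to 4 only, with liver, a subcutaneous body wall and an inguinal body wall tumor in mouse 1, liver in mouse 2, heart, mediastinal lymph node and a subcutaneous body wall tumor in mouse 3, and mediastinal lymph node and parietal pleura in mouse 4. Mouse 6 was female and the others male. The labels give no ages. The primary tumors of mice 5 to 7 have no profiled metastasis and are called unmatched below, and those of mice 1 to 4 are called matched. Tumors were whole pieces dissected away from adjacent tissue, so that fewer cells of a type and less RNA per cell cannot be told apart.

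The lysosome is the acid compartment in which cells break down lipids, glycans, proteins and nucleic acids delivered by endocytosis and autophagy. A proton pump in its membrane acidifies it, heavily glycosylated proteins such as LAMP1 and LAMP2 line the inside of that membrane, and soluble hydrolases are carried in mostly by the mannose 6-phosphate receptors. The transcription factor TFEB and its relatives drive many of these genes through CACGTG elements near the gene start. In the lung, type II cells store surfactant in lamellar bodies, which are lysosome-related organelles, and alveolar macrophages take up and degrade surfactant, so both cells are rich in lysosomal proteins. Inherited loss of single members causes lysosomal storage diseases.

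Values are intensities on a linear scale, and median intensity per array lay between 75 and 85.6. Differences are in log2 units, metastasis minus primary, from a limma fit of the 13 tumors of mice 1 to 4 with the mouse as a block. Counts are given at an unadjusted p under 0.05. The p-value of a gene is the limma value adjusted over all 22626 probe sets, or that of an exact test, which is not adjusted. The 9 metastases came from 4 animals and share their 4 primary tumors, so the p-values are not at the level of the animal. All 10 lung adenocarcinoma epithelium markers, which include the surfactant gene Sftpc and the keratins, had a difference below 0. Their sum lay between 18680 and 21070 in the matched primary tumors, 17190 and 24980 in the unmatched ones, and 10340 and 14380 in the metastases. That sum depends mostly on its brightest genes, and not on the same ones in each mouse. In the liver metastasis of mouse 1, Sftpc went from 8556 to 1239 while Krt8 rose from 3469 to 4578. In the lymph node metastasis of mouse 4, Sftpc went from 7037 to 6311 and Krt8 from 4486 to 1850. The bright keratins Krt8 and Krt18 were lower in only 5 and 6 of the 9 metastases. Nkx2-1, the lineage factor of lung epithelium, was dim, with 13.96 to 52.85 in the matched primary tumors, and read 1.07 in the heart metastasis of mouse 3, next to the floor of 1.

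More of the measured lysosomal genes were lower than higher in the metastases, and none passed the adjusted threshold. The log2 difference was below 0 for 20 of 31 and its median was −0.09, from −0.74 for Scarb2 to 0.35 for Dnase2a. Over all 12393 genes the median was −0.01 and 6425 genes (51.8%) were below 0. At an unadjusted p under 0.05, 8 of the 31 were lower and 0 were higher, where 7.11% of all genes were lower and 4.37% higher. At an adjusted p under 0.05, the fit called 0.354% of all probe sets and 0 of the 31. The 8 genes were Npc2, Psap, Smpd1 and Hexa of the lipid group, Gaa of the glycan group, and Scarb2, Mcoln1 and Atp6v0d1 of the membrane group.

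**Figure D1:**
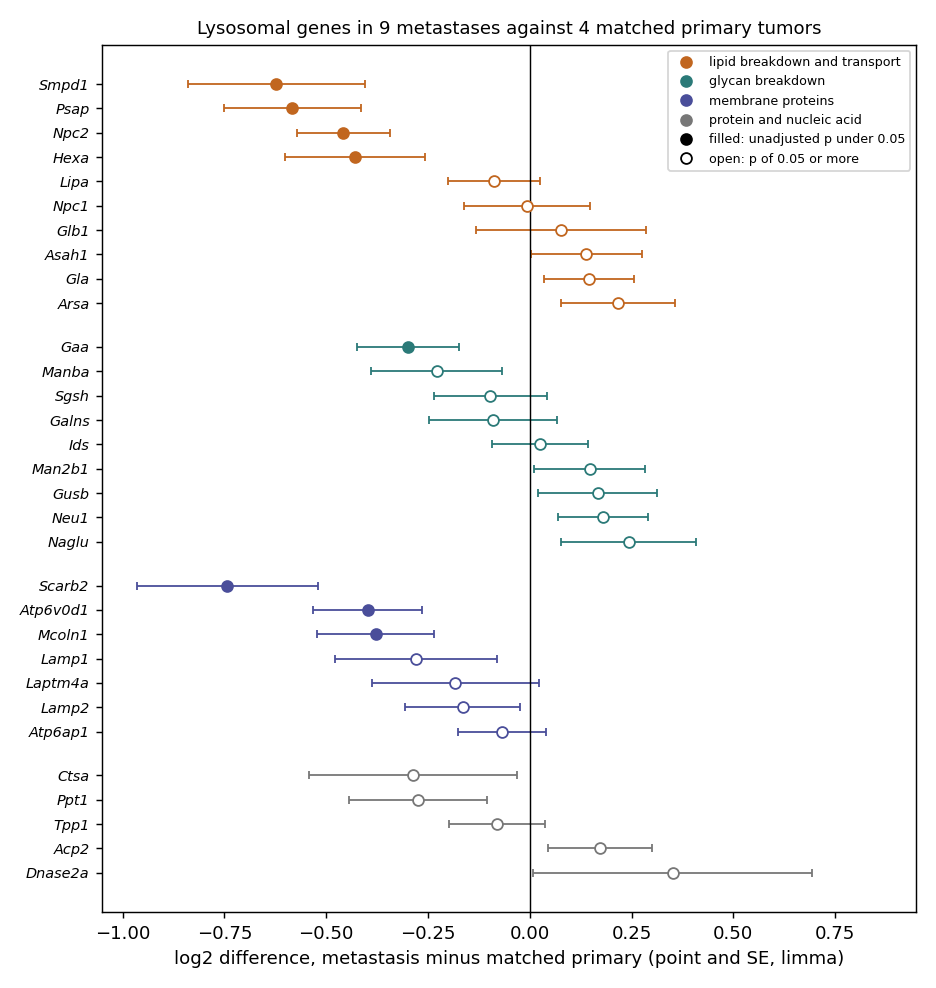
Log2 difference between 9 metastases and the 4 matched primary tumors for the 31 measured lysosomal genes, by role group, with bars for 1 SE from limma and filled points for unadjusted p under 0.05. The filled points are 8 and all lie left of 0, and the 7 membrane protein genes all lie left of 0.

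The number of genes at an unadjusted p under 0.05 changed with mice left out, among all genes as well as among the 31. Without mouse 4, 2 of the 31 were lower, Npc2 and Scarb2, where 5.63% of all genes were lower. Without mouse 1, 4 were lower, Npc2, Smpd1, Psap and Scarb2, where 6.37% of all genes were lower. Without mouse 2, which gave 1 metastasis, Npc2, Psap, Scarb2, Mcoln1 and Atp6v0d1 were lower and Dnase2a was higher, where 5.94% of all genes were lower and 3.82% higher. Npc2 and Scarb2 stayed at p under 0.05 in all 12 fits that left out 1 mouse or 1 metastasis, while Psap did so in 11, Mcoln1 and Atp6v0d1 in 10, Smpd1 in 10, Hexa in 8 and Gaa in 3.

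Among the lipid genes, a cholesterol carrier, the saposin precursor and a pair of sphingolipid hydrolase genes were lower in the metastases. The group held 6 lower genes of 10, with a median difference of −0.05, and 4 of the 10 were lower at an unadjusted p under 0.05. Npc2, the soluble protein that hands cholesterol to the membrane protein NPC1 for export, was the brightest of the 31 genes. Its intensity was 7098, 8219, 5222 and 9336 in the primary tumors of mice 1 to 4. In the metastases it was 5308, 5191 and 5072 in the liver and body wall tumors of mouse 1, 6510 in the liver of mouse 2, 2669 in the heart, 3249 in the lymph node and 3597 in the body wall of mouse 3, and 7688 and 8037 in the node and pleura of mouse 4. Every metastasis lay below the primary tumor of its own mouse, although the ranges of all primary tumors and all metastases overlapped because mouse 3 was low and mouse 4 high in both. The difference was −0.46 (SE 0.11, adjusted p = 0.151). An exact permutation of tissue labels within mice gave an unadjusted p = 0.0104, the smallest that the 96 arrangements allow. Fuca1, Gnptab, Cd68 and Ctsh of the lists read below reached the same value, and the share of all genes that did is not given here. Npc1, the partner that NPC2 hands cholesterol to, differed by −0.01 (SE 0.15) and was lower in 4 of 9 metastases.

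Psap encodes prosaposin, the precursor of the 4 saposins that present sphingolipids to their hydrolases. Its intensity was 1663, 1995, 2129 and 2889 in the matched primary tumors. The metastases read 1718, 990 and 1325 in mouse 1 (liver, then body wall), 1420 in mouse 2, 1730, 1523 and 1575 in mouse 3 (heart, lymph node, body wall), and 1286 and 1366 in mouse 4 (lymph node, pleura). All but the liver tumor of mouse 1 were below their primary tumor, and the widest drops were in mouse 4. The difference was −0.58 (SE 0.17, adjusted p = 0.209, exact p = 0.0208).

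Smpd1 encodes acid sphingomyelinase, which splits sphingomyelin into ceramide and phosphocholine. It read 251, 370, 271 and 361 in the matched primary tumors, and 195, 160 and 235 in the metastases of mouse 1, 188 in mouse 2, 309, 129 and 184 in mouse 3, and 196 and 218 in mouse 4. Only the heart metastasis of mouse 3 was above its primary tumor. The difference was −0.62 (SE 0.22, adjusted p = 0.304, exact p = 0.0521). Hexa, the alpha subunit of the hexosaminidase that degrades GM2 ganglioside, read 522, 462, 373 and 446 in the matched primary tumors and from 241 (liver, mouse 2) to 499 (heart, mouse 3) in the metastases, and 7 of 9 were lower than their primary tumor. Its difference was −0.43 (SE 0.17, adjusted p = 0.370, exact p = 0.0625).

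The remaining lipid genes did not pass an unadjusted p of 0.05. Lipa, the acid lipase of cholesteryl esters, differed by −0.09 (SE 0.11), and Glb1, the beta-galactosidase of GM1 ganglioside, by 0.08 (SE 0.21). Asah1, the acid ceramidase that takes over the product of SMPD1, differed by 0.14 (SE 0.14) and Gla, the alpha-galactosidase of globotriaosylceramide, by 0.15 (SE 0.11). Arsa, which removes the sulfate of sulfatide with the help of a saposin, had the highest difference of the group at 0.22 (SE 0.14, adjusted p = 0.620). Arsa read 198, 176, 163 and 209 in the matched primary tumors and from 176 to 277 in the metastases, and 3 of the 9 were lower than their primary tumor. Asah1 differed more between mice than between tissues, and the 4 tumors of mouse 3 read between 1290 and 1671 and the other 9 between 446 and 873.

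Glycan enzymes had values on both sides of 0. Of the 9 measured, 4 were lower and 5 higher, with a median of 0.02 and 1 gene at an unadjusted p under 0.05. That gene was Gaa, the acid alpha-glucosidase that degrades lysosomal glycogen. It read 332, 380, 346 and 304 in the matched primary tumors, and 235, 273 and 310 in the metastases of mouse 1, 313 in mouse 2, 237, 256 and 338 in mouse 3, and 277 and 229 in mouse 4. All 9 metastases were below their own primary tumor, by little in the body wall tumors of mice 1 (inguinal) and 3. The difference was −0.30 (SE 0.13, adjusted p = 0.401, exact p = 0.0313). Gaa and Npc2 were the members lower in 9 of 9 metastases, a pattern of 3.66% of all genes, and 0 members were higher in all 9.

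The other glycan genes had differences between −0.23 for Manba, the lysosomal beta-mannosidase, and 0.24 for Naglu, which acts in heparan sulfate breakdown. Naglu read 69.2, 89.3, 130 and 102 in the matched primary tumors and from 75.1 to 156 in the metastases, and its SE of 0.17 left it at an adjusted p = 0.644. Sgsh and Ids, other enzymes of heparan sulfate breakdown, differed by −0.10 (SE 0.14) and 0.02 (SE 0.12). Galns, the sulfatase of keratan sulfate, differed by −0.09 (SE 0.16). Gusb, beta-glucuronidase, differed by 0.17 (SE 0.15), Man2b1, the lysosomal alpha-mannosidase, by 0.15 (SE 0.14), and Neu1, the lysosomal sialidase, by 0.18 (SE 0.11). Manba also differed more between mice, with 111 to 202 in the 4 tumors of mouse 3 and 53.4 to 86.1 in the other 9 matched tumors.

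The 7 measured membrane protein genes were all lower in the metastases, with a median difference of −0.28, and 3 of the 7 were at an unadjusted p under 0.05. Scarb2, which encodes LIMP-2, the membrane protein that carries glucocerebrosidase to the lysosome, had the widest difference of the 31 genes. It read 930, 771, 645 and 855 in the matched primary tumors, and 460, 524 and 698 in the metastases of mouse 1, 270 in mouse 2, 275, 487 and 359 in mouse 3, and 876 and 769 in mouse 4. The lymph node metastasis of mouse 4 stood just above its primary tumor and the other 8 below. The difference was −0.74 (SE 0.22, adjusted p = 0.2203, exact p = 0.0208).

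Atp6v0d1, a subunit of the membrane sector of the proton pump, read 556, 498, 336 and 761 in the matched primary tumors. Its metastases read 392, 309 and 418 in mouse 1, 397 in mouse 2, 353, 296 and 332 in mouse 3, and 459 and 519 in mouse 4. The drop was clear in mice 1, 2 and 4 and small or absent in mouse 3, where the primary tumor was already low. The difference was −0.40 (SE 0.13, adjusted p = 0.276, exact p = 0.0208). Mcoln1, the calcium-permeable channel TRPML1 of the lysosomal membrane, read 320, 308, 260 and 265 in the matched primary tumors and from 171 (liver, mouse 1) to 272 (heart, mouse 3) in the metastases, with 8 of 9 lower. Its difference was −0.38 (SE 0.14, adjusted p = 0.341, exact p = 0.0417). A second, dimmer Mcoln1 probe set differed by −0.03 (SE 0.22, adjusted p = 0.982), so the call for this gene rests on 1 of its probe sets.

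The structural proteins of the membrane gave smaller values. Lamp1 read 1809, 2771, 1841 and 2198 in the matched primary tumors and 1149 to 2561 in the metastases, a difference of −0.28 (SE 0.20, adjusted p = 0.660). Lamp2 differed by −0.17 (SE 0.14), and Laptm4a, a small membrane protein of late endosomes and lysosomes, by −0.18 (SE 0.21). Atp6ap1, an accessory subunit of the proton pump, had the smallest difference of the group at −0.07 (SE 0.11, adjusted p = 0.865) and read 511 to 737 in the metastases against 586 to 670 in the matched primary tumors. The liver metastasis of mouse 2 weighed on the group. Without mouse 2 the median of the 7 genes was −0.05 in place of −0.28, with 7 of 7 still below 0.

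**Figure D2:**
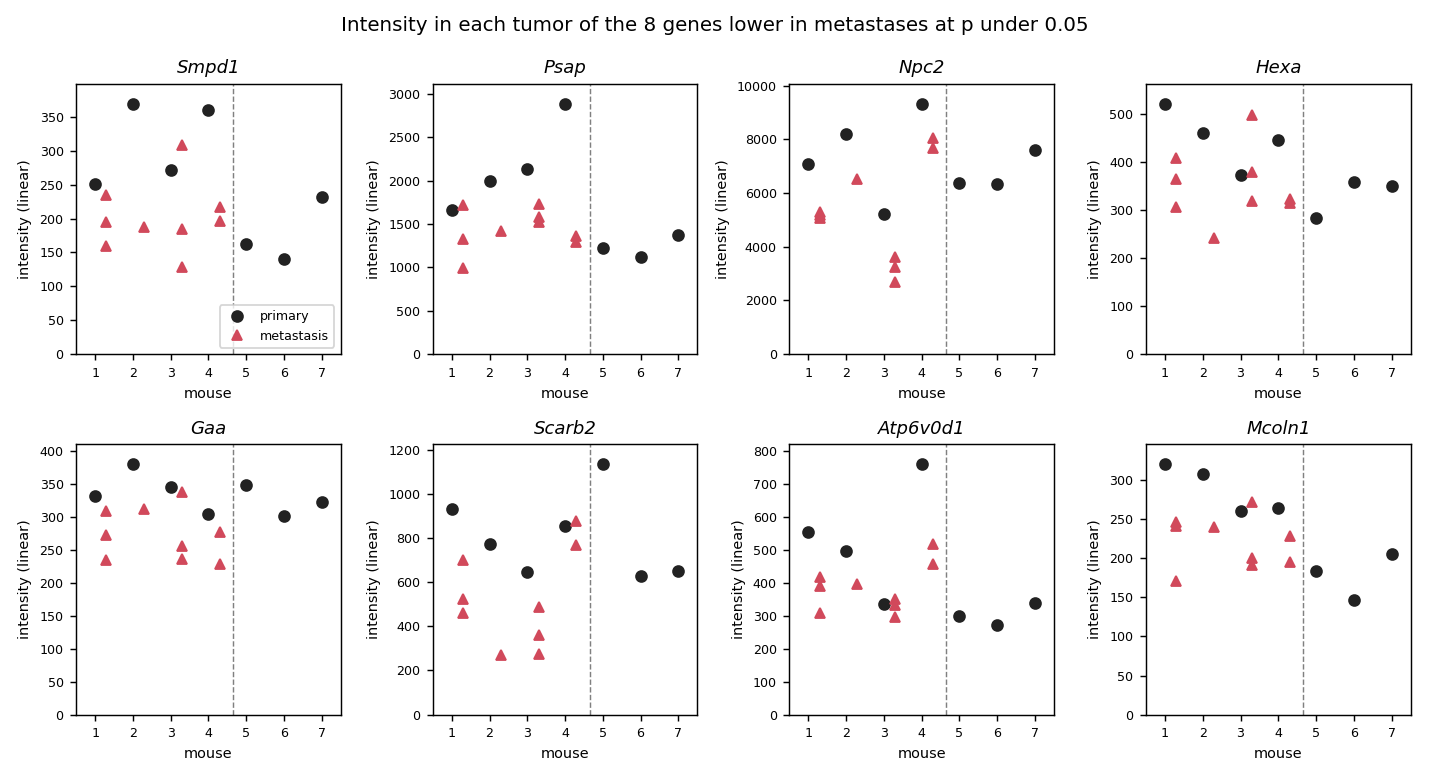
Linear intensity in each of the 16 tumors of the 8 genes at an unadjusted p under 0.05, by mouse, with circles for primary tumors and triangles for metastases; mice right of the dashed line have no profiled metastasis. In Npc2 and Gaa every metastasis lies below the primary tumor of its mouse, and in Psap, Smpd1, Mcoln1 and Atp6v0d1 the primary tumors of mice 5 to 7 lie at the level of the metastases.

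Of the protein and nucleic acid enzymes, none was at an unadjusted p under 0.05, with 3 of 5 lower and a median of −0.08. Ctsa, the protective protein that stabilises beta-galactosidase and sialidase, had the lowest difference, −0.29 (SE 0.26, adjusted p = 0.739). Ctsa read 490, 464, 717 and 472 in the matched primary tumors and from 218 (lymph node, mouse 4) to 1030 (heart, mouse 3) in the metastases. Dnase2a, the acid DNase, had the highest difference of all 31 genes, 0.35 (SE 0.34, adjusted p = 0.765). It was dim, at 34.6, 69.3, 31.9 and 56.4 in the matched primary tumors, and the metastases ran from 30.98 (liver, mouse 2) to 146 (lymph node, mouse 4), with 8 of 9 higher. Tpp1, the tripeptidyl peptidase, and Ppt1, the thioesterase that removes palmitate from proteins, differed by −0.08 (SE 0.12) and −0.27 (SE 0.17). Acp2, the lysosomal acid phosphatase, differed by 0.17 (SE 0.13).

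Several genes had more than 1 probe set, with 55 probe sets for the 31 genes. Of the 8 genes lower at an unadjusted p under 0.05, Smpd1, Hexa and Atp6v0d1 had 1 probe set and could not differ in sign. Npc2, Psap, Gaa, Scarb2 and Mcoln1 had 2 each, both below 0, though the second of Mcoln1 was at −0.03. The second probe set of Npc2 differed by −0.69 (SE 0.14, adjusted p = 0.0763), that of Scarb2 by −0.66 (SE 0.15, adjusted p = 0.129) and that of Psap by −0.73 (SE 0.21, adjusted p = 0.207). The second Ppt1 probe set had the smallest p of all 55 probe sets, with −0.58 (SE 0.11, adjusted p = 0.0654). Of the 4 Lamp2 probe sets, the dimmest differed by −0.74 (SE 0.25, adjusted p = 0.278) and the others by −0.17 to −0.43. The probe sets of 8 genes, Lipa, Gla, Sgsh, Ids, Man2b1, Neu1, Tpp1 and Acp2, had opposite signs, so the signs given above for these genes are those of the brightest probe set alone. Neu1 had 0.18 and 0.66 at 2 probe sets and −0.24 at the other one. No probe set of the 31 genes passed the adjusted threshold.

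Seen metastasis by metastasis, the liver tumor of mouse 2 was the one in which lysosomal genes lay lowest, and the liver tumor of mouse 1 and the heart tumor of mouse 3 were the 2 with a median above 0. The median log2 ratio of the 31 genes to the matched primary tumor was −0.26 in the liver of mouse 2, with 22 of 31 lower, and 0.07 in the heart of mouse 3, with 13 of 31 lower. It was 0.05, −0.19 and −0.02 in the liver and body wall tumors of mouse 1, −0.18 in the lymph node and −0.02 in the body wall of mouse 3, and −0.14 in the node and −0.11 in the pleura of mouse 4. Over all 12393 genes the medians ran from −0.08 (lymph node, mouse 3) to 0.07 (inguinal tumor, mouse 1), and the values from −0.02 to 0.07 lie within that range. The all-gene median was 0 in the liver of mouse 2, with 6158 genes lower, and −0.04 in the heart of mouse 3, with 6663 lower. The membrane and glycan groups lay farthest apart in the liver metastases. The median of the membrane genes was −0.77 and that of the glycan genes 0.11 in the liver of mouse 2, and the values were −0.35 and 0.08 in the liver of mouse 1. In mouse 4 the lipid, glycan and membrane medians lay close together, between −0.23 and −0.11. Each of these values is 1 tumor against 1 tumor, so the spread within a site is not known.

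**Figure D3:**
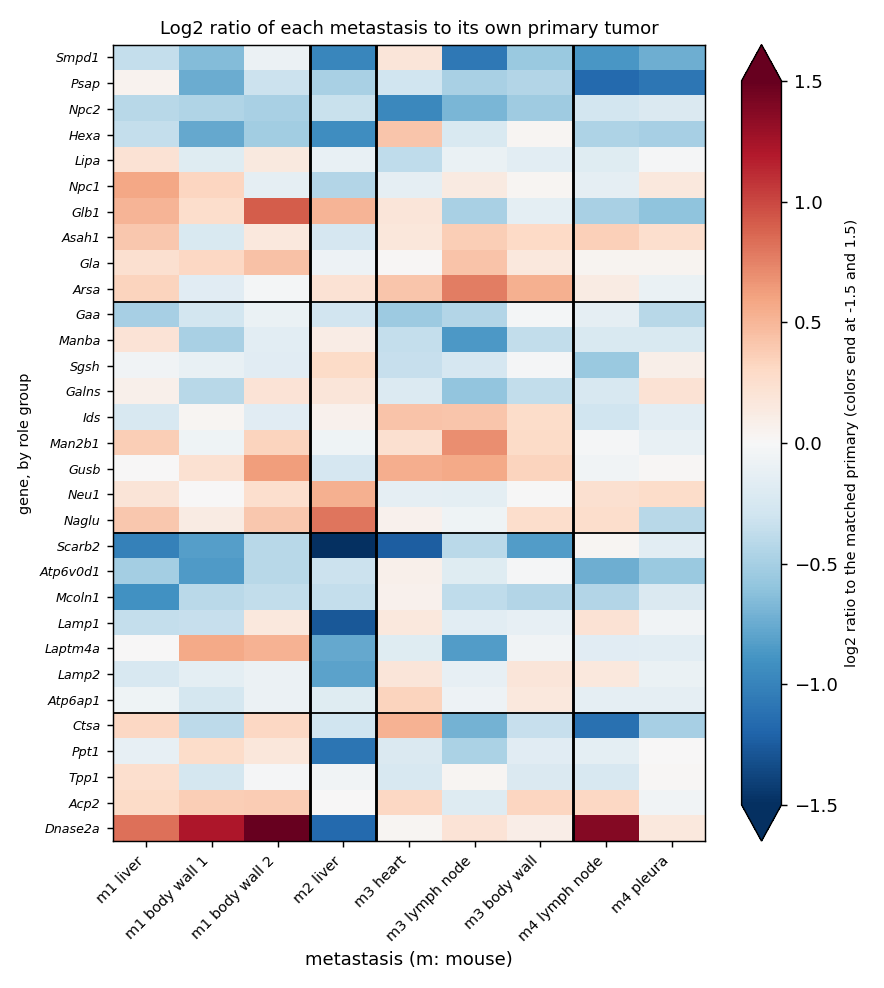
Log2 ratio of each of 9 metastases to the primary tumor of its mouse for the 31 genes, in rows by role group, with blue for lower and red for higher; heavy vertical lines part the 4 mice. The rows of Npc2 and Gaa hold no red cell, and the column of the mouse 2 liver is blue through the membrane genes.

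**Figure D4:**
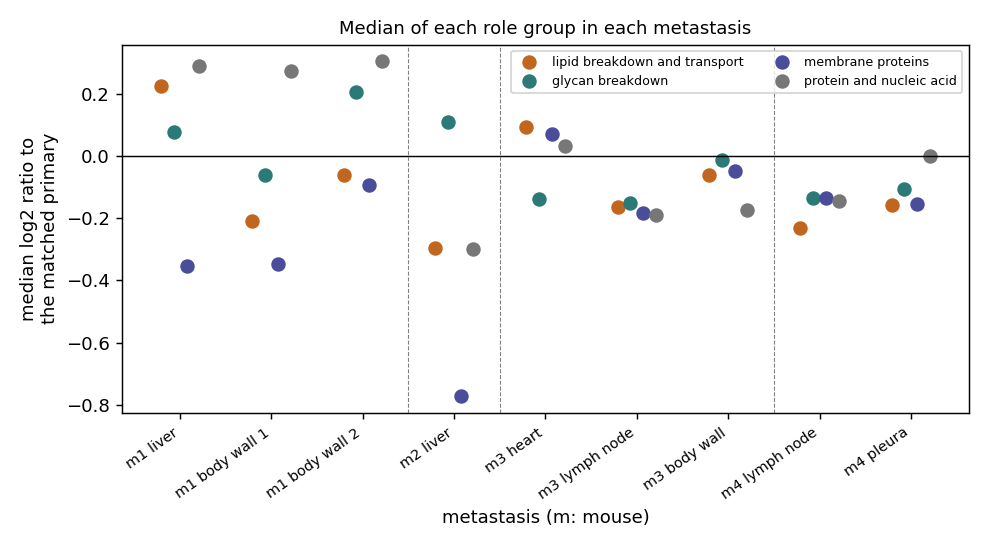
Median log2 ratio to the matched primary tumor of the 4 role groups in each metastasis, each point being the median over the genes of 1 group in 1 tumor. The membrane median is lowest in the mouse 2 liver, at −0.77, and the only membrane median above 0 is that of the mouse 3 heart, at 0.07.

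No difference between sites of metastasis passed a test. Thoracic metastases (heart, mediastinal lymph node and pleura) were set against distant ones (liver and body wall) by an interaction term. Of all genes 3.72% had an unadjusted p under 0.05 for that difference, and 0 of the 31 did. Only mouse 3 held both kinds of site, so site and mouse are partly confounded.

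The choice of primary tumors as the reference changed the values of several lysosomal genes. The 3 unmatched primary tumors were set against the 4 matched ones, a comparison chosen after seeing the data. All 3 lay below all 4 for 9 of the 31 genes, where 12.2% of all genes did so, and above all 4 for 3 of the 31, where 7.1% did so. In a limma fit of the 16 tumors in 3 groups, 11 of the 31 differed between the unmatched and the matched primary tumors at an unadjusted p under 0.05 (9 lower, 2 higher). Of all 12393 genes 16.2% did so, with 1250 lower and 761 higher. At an adjusted p under 0.05, 0 of the 31 and 18 of the 12393 genes were called. The genes named in the next paragraphs for this comparison were likewise chosen after their values were seen.

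Ctsa was the widest of these. It read 206, 185 and 164 in mice 5 to 7, below every matched primary tumor (464 to 717) and below every metastasis (218 to 1030), with a difference of −1.52 (SE 0.37, adjusted p = 0.0805). Glb1, whose product is held in a complex by CTSA, behaved alike, with 96.7, 101 and 80.3 in mice 5 to 7, 138 to 223 in the matched primary tumors and 115 to 317 in the metastases (difference −0.91, SE 0.30, adjusted p = 0.141). Psap read 1224, 1123 and 1368, Smpd1 162, 141 and 232, and Mcoln1 184, 146 and 206, in each case below all 4 matched primary tumors. Atp6v0d1 read 301, 273 and 339, below all but the primary tumor of mouse 3. Tpp1 went the other way, with 1457, 1480 and 1295 in mice 5 to 7 and no more than 1106 in any other tumor.

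Set against the unmatched primary tumors alone, several of these genes were no longer lower. The 9 metastases are the same as in the other comparisons. They were above mice 5 to 7 by 0.20 (SE 0.19) for Psap, 0.18 (SE 0.25) for Smpd1, 0.04 (SE 0.20) for Hexa, 0.31 (SE 0.17) for Mcoln1 and 0.35 (SE 0.21) for Atp6v0d1, with none at an unadjusted p under 0.05. The difference stayed below 0 for Npc2 at −0.41 (SE 0.27, adjusted p = 0.420), for Gaa at −0.24 (SE 0.15, adjusted p = 0.372) and for Scarb2 at −0.68 (SE 0.33, adjusted p = 0.262), also at unadjusted p-values over 0.05. Over the 31 genes, 14 were lower with a median of 0.04. The membrane median, −0.28 against the matched primary tumors, was 0.05 here with 3 of 7 genes lower, and the lipid and glycan medians were 0.08 and −0.04. At an unadjusted p under 0.05, 2 were lower (Npc1 and Tpp1) and 4 higher (Glb1, Gusb, Galns and Ctsa), where 8.25% of all genes were lower and 12.2% higher. At an adjusted p under 0.05, 1.83% of all probe sets and 1 of the 31 genes were called, which was Tpp1 at −0.59 (SE 0.14, adjusted p = 0.0478). The labels do not say how the 3 mice without a profiled metastasis differ from the others, and mouse and tumor cannot be told apart in them.

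**Figure D5:**
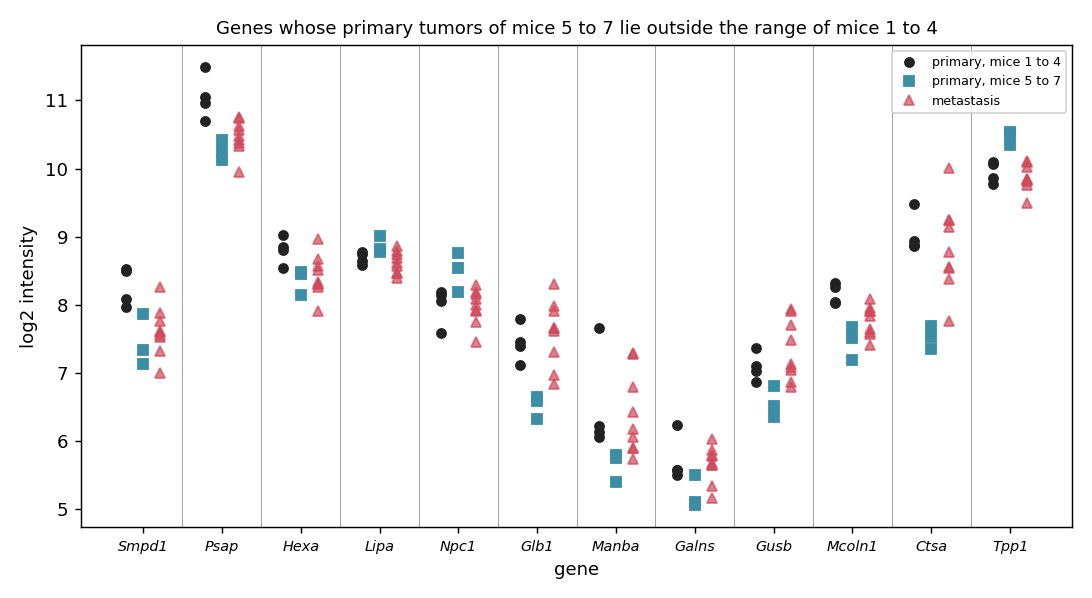
Log2 intensity of the 12 genes for which all primary tumors of mice 5 to 7 (squares) lie outside the range of those of mice 1 to 4 (circles), with the 9 metastases (triangles). The squares lie below the circles in 9 genes and above in 3, and for Ctsa and Glb1 they also lie below every metastasis.

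With all 7 primary tumors as the reference and the mouse as a random block, 17 of 31 genes were lower and the median was −0.05. At an unadjusted p under 0.05, 4 genes were lower (Npc2, Gaa, Scarb2 and Ppt1) and 1 higher (Gusb), where 6.89% of all genes were lower and 6.12% higher. At an adjusted p under 0.05, 1.24% of all probe sets and 0 of the 31 were called. Scarb2 differed by −0.71 (adjusted p = 0.142), Npc2 by −0.48 (adjusted p = 0.234) and Gaa by −0.29 (adjusted p = 0.204). The values of Psap, Mcoln1 and Atp6v0d1 shrank to −0.33, −0.16 and −0.17, and Ctsa turned to 0.26 (adjusted p = 0.814).

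Other genes of the lysosome were read from lists drawn up beside the 33. In the same fit 51.8% of all genes were below 0. At an unadjusted p under 0.05, 7.11% of all genes were lower and 4.37% higher. Of the 14 measured subunits of the proton pump, 13 were lower, with a median of −0.24. At an unadjusted p under 0.05, 4 of them were lower and 0 higher, namely Atp6v1b2 (−0.57, SE 0.20), Atp6v1a (−0.45, SE 0.13) and Atp6v1h (−0.34, SE 0.12) of the cytosolic sector and Atp6v0a1 (−0.42, SE 0.17) of the membrane sector. The remaining hydrolases and activators were lower in 8 of 8, with a median of −0.25 and 1 at an unadjusted p under 0.05, the fucosidase Fuca1 (−0.57, SE 0.11, adjusted p = 0.0795). Of 12 cathepsins and legumain, 10 were lower with a median of −0.48, and 5 were lower at an unadjusted p under 0.05, with Ctsd (−1.32, SE 0.30) and Ctsh (−0.79, SE 0.19) the widest. Of 14 other lysosomal membrane proteins, 9 were lower with a median of −0.06, and 1 passed an unadjusted p of 0.05, the macrophage protein gene Cd68 (−0.80, SE 0.22). That 1 of 14 is near the share of all genes. None of these genes was at an adjusted p under 0.05.

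Genes that deliver the enzymes were lower in 8 of 11, with a median of −0.16. At an unadjusted p under 0.05, 1 of the 11 was lower, near the 7.11% of all genes that were. It was Gnptab (−0.40, SE 0.13, adjusted p = 0.243), which encodes the enzyme that starts the mannose 6-phosphate tag. Gnptab was lower in 9 of 9 metastases, a pattern of 3.66% of all genes. Of 10 regulators of lysosomal genes, 7 were lower with a median of −0.10. Rragd, a GTPase that binds the mTORC1 kinase complex at the lysosome, was higher by 1.47 (SE 0.36, adjusted p = 0.145) and higher in 9 of 9, but at means of only 2.74 in the matched primary tumors and 6.60 in the metastases. The Tfeb probe set was also dim, at means of 11.9 and 5.16, and differed by −0.61 (SE 0.38, adjusted p = 0.606). Of the 13 tumors only the primary tumor of mouse 2, at 33.3, was above the 25th percentile of all values (24.3).

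Short stretches before the gene start are shown for the genes that held the CACGTG element of TFEB and its relatives in their promoter window and either were lower at an unadjusted p under 0.05 or held it more than once, with all copies before the start. The sequences are RefSeq windows of build GRCm38.p6 that run from 250 bases before the start to 50 after it, printed 5′ to 3′ on the strand of the gene, with each CACGTG in capitals.
Mcoln1, chr8:3500428-3500499, plus strand: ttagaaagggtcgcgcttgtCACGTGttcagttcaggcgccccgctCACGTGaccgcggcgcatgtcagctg
Gaa, chr11:119267803-119267848, plus strand: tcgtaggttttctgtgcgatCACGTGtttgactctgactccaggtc
Lamp1, chr8:13159080-13159160, plus strand: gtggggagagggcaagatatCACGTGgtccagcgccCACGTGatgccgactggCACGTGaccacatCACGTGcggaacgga
Gla, chrX:134601174-134601252, minus strand: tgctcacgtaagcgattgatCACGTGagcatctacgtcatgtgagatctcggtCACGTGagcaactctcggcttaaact

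A window was given for 30 of the 33 genes. CACGTG, which reads the same on both strands, stood in the window of 10 of the 30 (33.3%), where 10.8% of the 9888 genes with a window and a probe set of their own held it. The longer TCACGTGA, which contains it, stood in 4 of the 30 (13.3%), in Atp6v0d1, Ctsa, Gla and Mcoln1, against 1.76%. Lamp1 held 4 copies of CACGTG, and Mcoln1, Gla and Ctsa held more than 1. Of the 8 genes lower at an unadjusted p under 0.05, 3 held it (Mcoln1, Gaa and Atp6v0d1), and of the 20 other measured genes with a window 7 did. A match is a run of letters and not a measured binding site.

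Markers of other cells moved with the same contrast. Among all genes 51.8% were below 0, and at an unadjusted p under 0.05, 7.11% were lower and 4.37% higher. Of 14 macrophage markers, 9 were lower, and the median of the 14 was −0.25. At an unadjusted p under 0.05, 6 were lower, among them Chil3 (−2.69), Mpeg1 (−1.32) and Lyz2 (−1.09), and 0 higher. The 5 markers above 0 were Fcgr1 (0.13), Adgre1 (0.16), Msr1 (0.18), Csf1r (0.46) and Cd163 (0.81, adjusted p = 0.616). The summed intensity of the 14 ran from 7868 to 11370 in the matched primary tumors, 9122 to 14310 in the unmatched ones and 2574 to 10720 in the metastases. Chil3 and Lyz2, the brightest of the 14, weigh most on that sum. Their means were 3624 and 2534 in the matched primary tumors and 1032 and 1411 in the metastases. Csf1r, the next brightest, had means of 678 and 1110. All 11 markers of alveolar type II cells were lower, with a median of −2.27, and their sum ran from 19760 to 48590 in the matched and 38590 to 57700 in the unmatched primary tumors and from 1751 to 35630 in the metastases. All 9 endothelial markers were lower, with a median of −0.36 and 2 at an unadjusted p under 0.05, Vwf (−4.61) and Tie1 (−0.88), and their sum ran from 966 to 1372 in the matched primary tumors and from 594 to 1318 in the metastases. Of 9 lymphocyte markers, 7 were higher with a median of 0.11 and 0 at an unadjusted p under 0.05. Host organ markers stood out at their own sites, with a median log2 ratio of 3.46 and 1.56 for hepatocyte markers in the livers of mice 1 and 2 and of 4.23 for cardiac muscle markers in the heart of mouse 3. In the inguinal tumor of mouse 1 the median was 2.11 for skeletal muscle markers and 1.99 for hepatocyte markers. The part of these cells in the values of the lysosomal genes was not tested.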

How the data were processed

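The deposited intensity values were used, on a linear scale, which the authors computed in dChip from perfect match minus mismatch probes after invariant set normalization, 1 Affymetrix 430A 2.0 array per tumor. Of 22690 probe sets, 64 controls were left out. Values under 1 (3.71% at or under 1) were raised to 1 before log2, so differences of dim probe sets depend on this floor. Gene names came from the platform annotation.

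Metastases and matched primary tumors were compared in limma 3.58.1 (R 4.3.3), with mouse as a fixed block over 13 tumors and Benjamini-Hochberg adjustment over 22626 probe sets. All 16 tumors were fitted with mouse as a random block (consensus correlation 0.238). The pairing is that of the mouse in the labels. Deviations of a metastasis from its group mean correlated with those of its own primary tumor by −0.002 to 0.401, the highest of the 4 for 6 of 9. The exact test permuted tissue labels within mice, two-sided, and its p-values were not adjusted for the number of genes. Precision is limited by the number of arrays. For the 13-tumor comparison, simulated with 22626 probe sets, 47% of changes of 1 log2 unit and 82% of changes of 2 were recovered at an adjusted p under 0.05.

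Full values are given for genes with an unadjusted p under 0.05, the highest and lowest of each role group, and genes lower or higher in 9 of 9 metastases. The members, gene lists and settings were chosen with earlier results of these data known. Alternatives were floors at the 10th or 25th percentile, quantile normalization, median centring, dim probe sets left out, another choice of probe set, no mouse block, 1 ratio per mouse, the methods' paired t-test over the 9 ratios, a variance trend, and tumors or sites left out.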

Additional observations from a re-analysis of the deposited data

Results flagged for a closer look

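Of 62 groups of tumors tested, each being 1 lysosomal gene in the 7 primary tumors or the 9 metastases, 2 held a tumor far from the others, where chance flags about 1 group in 20. Sgsh, an enzyme of heparan sulfate breakdown, read 137 in the lymph node metastasis of mouse 4, and the nearest of the other 8 metastases read 187. Manba, the beta-mannosidase, read 202 in the primary tumor of mouse 3, and the nearest of the other 6 primary tumors read 74.8, while the metastases of mouse 3 read 157, 111 and 156.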

How the results depend on the processing

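The number of the 31 genes lower in metastases lay between 17 and 23 and their median between −0.14 and −0.05 over 28 settings. Genes at an unadjusted p under 0.05 numbered 8 in the reported fit, all lower, where 7.11% of all genes were lower and 4.37% higher. With all 16 tumors 4 were lower and 1 higher, where 6.89% of all genes were lower and 6.12% higher. Without the thoracic metastases 4 were lower and 1 higher, where 5.3% of all genes were lower and 4.77% higher. With single tumors or mice left out the number ran from 2 (without mouse 4, 5.63% of all genes lower) to 8. Where it was 8, 6.54% to 7.85% of all genes were lower. The methods' paired t-test, which takes the 9 ratios as independent, put 3 past an adjusted p of 0.05, Npc2, Gaa and Mcoln1, and 885 of all probe sets. Its counts at p under 0.01, before adjustment, were 7 and 2208. Without the mouse as a replicate block, 7 genes were at p under 0.05 (8 with it), 0 past the adjusted threshold, and 43 of all probe sets passed it (80 with it), and Npc2 was no longer among the 7. At p under 0.01 the fit without the block called 2 of the 31 genes and 587 of all probe sets. With 1 mean ratio per mouse, 7 genes were at p under 0.05, all lower, and 0 of all probe sets passed the adjusted threshold. At p under 0.01 that fit called 1 of the 31 genes and 571 of all probe sets. For neither of these fits is the share of all genes at p under 0.05 given here, so their counts of 7 stand without a baseline. The glycan median turned to −0.091 when the brightest probe set was taken over 13 tumors, where Neu1 changed probe set. With all 16 tumors the protein and nucleic acid median turned to 0.14 and Ctsa to 0.26. Quantile normalization moved the lipid median to 0.01 and the median of all genes to 0.03.

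Against the primary tumors of mice 5 to 7 alone, a setting chosen after seeing the data, the median of the 31 genes turned to 0.045, the membrane, lipid and glycan medians changed sign to 0.047, 0.081 and −0.040, that of the protein and nucleic acid group moved to −0.26, and 1 gene passed the adjusted threshold. Among the genes chosen for full values, Psap (0.20), Smpd1 (0.18), Hexa (0.045), Mcoln1 (0.31), Atp6v0d1 (0.35), Atp6ap1 (0.047), Ctsa (1.28), Naglu (−0.040) and Dnase2a (−0.26) changed sign. Of the remaining genes, Manba (0.71), Laptm4a (0.49), Galns (0.43), Ids (−0.19) and Neu1 (−0.11) did so. The cause of these shifts was not tested. Galns and Gla lay under the 40th percentile of mean log2 intensity, where small differences are least certain.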
